A study of Mus musculus with 4 samples.

Results

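In mouse embryos at the 2-cell stage, 10 genes of the actin cytoskeleton were measured among all others. They are the cytoplasmic actins Actb and Actg1, the nucleators Fmn2, Spire1, Spire2 and Daam1, the Arp2/3 subunits Actr2 and Actr3, and the turnover factors Cfl1 and Pfn1. They were chosen by name, with earlier results of these data known, and all 10 were found by Ensembl ID among the 53715 gene rows of the deposited count table. Knockdown embryos had been injected as zygotes with an siRNA (a short RNA that triggers degradation of its target) against SPENH0335, which by the title of the series is one of the enhancer-derived RNAs. Control embryos had received the control siRNA siNC. Both siRNAs were used at 20 μM, and both groups were C57BL/DBA2 whole embryos, taken as zygotes from the oviduct and cultured in KSOM. Each group had 2 libraries. No label says how many embryos went into a library or whether the libraries came from separate collections. The p-values therefore reflect the spread among 4 libraries, and part of that spread may be technical.

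Actin monomers polymerize into filaments, but the first step, nucleation, is slow without help. Formins such as Fmn2 and Daam1 start and elongate unbranched filaments, Spire proteins line up monomers and work together with Fmn2, and the Arp2/3 complex starts branches on existing filaments. Cofilin severs old filaments, and profilin returns monomers to growing ends. In the mouse oocyte, Fmn2 and Spire proteins build the cytoplasmic actin mesh that moves the meiotic spindle to the cortex, and the 2-cell embryo inherits much of the oocyte's RNA.

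The coding sequences of the 2 cytoplasmic actins are shown because they limit how well reads can be told apart. The first 75 coding bases are given 5′ to 3′, from the GENCODE M21 transcripts on the minus strand of GRCm38. Capitals mark the positions that differ between them. Actb lies at chr5:142905612-142905686 and Actg1 at chr11:120348017-120348091.
Actb: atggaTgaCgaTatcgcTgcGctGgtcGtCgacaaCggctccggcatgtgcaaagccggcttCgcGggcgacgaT
Actg1: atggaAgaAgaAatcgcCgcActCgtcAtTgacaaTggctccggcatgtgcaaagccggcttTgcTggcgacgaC
In this stretch 12 positions differed. Over the whole coding sequence of 1125 bases without the stop codon, 128 positions differed (88.6% identity), and the longest identical run was 62 bases. The labels give no read length, so how many reads fell within such runs is not known.

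Library totals ran from 78865491 to 99011109 counts. No gene passed edgeR's test over all genes, so no gene below is said to rise or fall. Markers of the labelled stage were present. Of 7 listed 2-cell markers, 6 had a row and all of these had counts in every library, with sums of 928 and 846 CPM in knockdown and 734 and 798 CPM in control. In knockdown 3 of the 6 lay above both controls and 0 below, against 15.6% and 17.1% of all genes tested. All 8 oocyte markers were present as well, with sums of 5222 and 5343 CPM in knockdown and 5599 and 5692 CPM in control. In knockdown 5 of them lay below both controls and 0 above, against 17.1% and 15.6% of all genes tested. Among tested genes averaging 100 CPM or more, 8.86% lay below and 27.0% above. The part of these stage markers' differences in the values of the actin genes was not tested. CPM here means counts scaled to library size, with TMM factors. No row is named SPENH0335, so the size of its knockdown was not analysed here.

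Levels between genes were compared as CPM per kilobase of merged exons, averaged over the 4 libraries. Cfl1 (175 CPM per kb) and Actr2 (174 CPM per kb) were at the top, with overlapping ranges over the libraries. Actb followed at 87.5 CPM per kb, Actr3 at 67.6 and Daam1 at 60.9, where the range of Actr3 overlapped that of Actb and that of Daam1. Fmn2 at 50.03 CPM per kb and Pfn1 at 48.3 could not be told apart, since Pfn1 ranged from 39.1 to 57.9. Spire1 at 22.3 and Actg1 at 15.4 CPM per kb stood apart from their neighbours. Spire2 was the lowest at 0.889 CPM per kb, below every library of the other 9 genes. Among 19506 protein-coding genes with a count, Cfl1 ranked at 209, Actr2 at 210 and Actb at 484, against 10233 for Spire2. Actb and Actg1, the usual housekeeping genes, thus had fewer reads per kilobase than the genes of cofilin and of the Arp2 subunit. The RNA was poly(A) RNA, pre-amplified as cDNA, and the handling of reads shared between similar genes is not known. Reads per kilobase therefore need not follow transcript numbers. Annotated length matters most for Pfn1, whose merged exons span 2405 bases against 861 for its longest coding transcript. With coding transcript lengths Pfn1 stood at 135 CPM per kb, next after Actr2 and Cfl1 and overlapping Actr3 and Actb, and Actr2 lay above Cfl1 with no overlap.

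**Figure D1:**
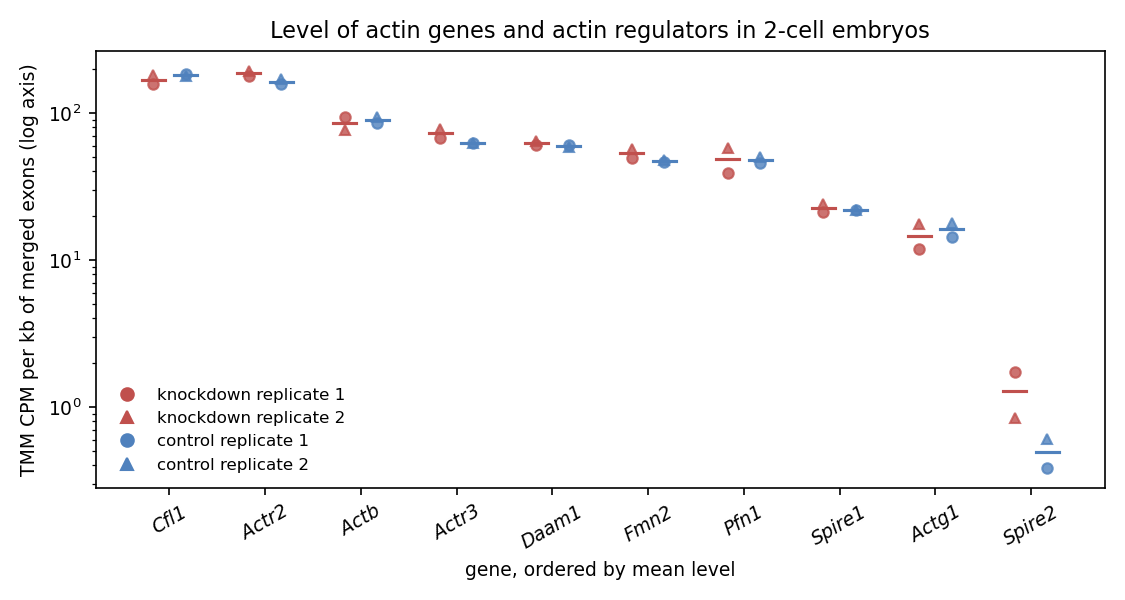
TMM-scaled CPM per kilobase of merged exons (log axis) of the 10 genes, in order of their mean. Circles are replicate 1, triangles replicate 2 and lines the mean of 2 libraries, with knockdown in red left of control in blue. Cfl1 and Actr2 lie near 175 CPM per kb and Spire2 near 0.889.

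None of the 10 genes passed the test between knockdown and control, against 0.0% of the 25565 genes tested (edgeR's quasi-likelihood test with Benjamini-Hochberg adjustment, adjusted p = 0.9999 for each of the 10). At an unadjusted p under 0.05 there were 0 of the 10, against 3.85% of all genes, or 984. By adjusted p, DESeq2 called 49 genes (0.133% of the 36863 genes with a count) and limma-voom 0, with none of the 10 genes among them. DESeq2 was run with its default filtering, which can leave genes of low count without an adjusted p. At an unadjusted p under 0.05, DESeq2 had 1 of the members (Spire2) and 4.01% of all genes, and limma-voom had 1 (Actr2) and 3.13% of all genes. For Spire2, DESeq2 gave an unadjusted p of 0.0333 and an adjusted p of 0.893. For Actr2, limma-voom gave an unadjusted p of 0.0441 and an adjusted p of 0.978. The fold changes had a median log2 of 0.05 over the 10, with 7 above and 3 below 0. Over all genes tested the median was -0.0025, with 12711 above and 12854 below 0. Over tested genes averaging 10 CPM or more, as 9 of the 10 did, the median was 0.026. In 9 of the 10, the 95% interval of the fold lay within 2-fold in either direction, and in 8 within 1.5-fold. Spire2 was the exception to the first limit, and Spire2 and Actg1 to the second. The values are scaled to library size, so a change in the number of cells or embryos, or in total RNA per cell, was not measured. Only levels relative to the other genes were compared, in whole embryos.

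**Figure D2:**
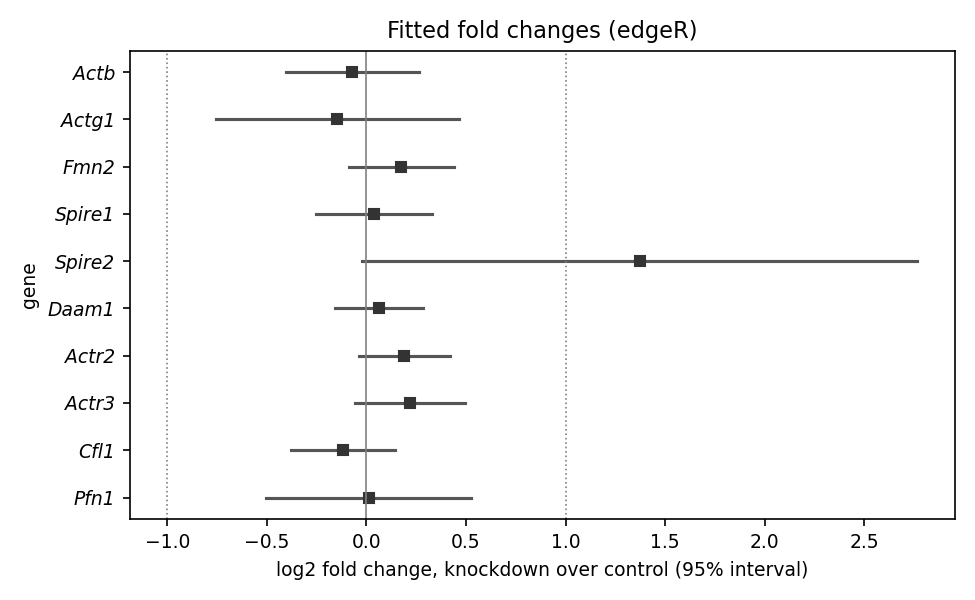
Fitted log2 fold change of knockdown over control for each gene (squares), with its 95% interval (lines). Dotted lines mark a 2-fold difference. All 10 intervals include 0, and that of Spire2, from -0.023 to 2.77, is the widest.

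Actb (chromosome 5, 142903115 to 142906754, GRCm38) encodes beta-actin. It was at 251 and 206 CPM in knockdown embryos, against 229 and 251 CPM in controls. The knockdown libraries spanned the control values, with replicate 1 level with the higher control and replicate 2 below both. Knockdown embryos averaged 229 ± 31.8 CPM and control embryos 240.1 ± 15.1 CPM (SD, n = 2 each), and the fitted log2 fold change was -0.07 (SE 0.13). With 19365 counts or more per library, counting error was at most 0.719%, far below the gap between the knockdown replicates.

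Actg1 (chromosome 11, 120345690 to 120348542) encodes gamma-actin, which differs from beta-actin mainly at its start. It was at 31.4 and 46.4 CPM in knockdown, against 38.4 and 47.8 CPM in control. Here knockdown replicate 1 was the lowest library and control replicate 2 the highest, so the groups overlapped. Its log2 fold change was -0.15 (SE 0.24). The direction of both actins rested on single libraries. Without knockdown replicate 2 the log2 fold change of Actb was 0.07, and that of Actg1 was 0.11 without knockdown replicate 1 and 0.019 without control replicate 2.

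Between the knockdown replicates the 2 actins differed in opposite directions. The share of Actb in their joint reads per kilobase was 88.8% and 81.5% in knockdown, against 85.6% and 83.9% in control. The knockdown libraries were thus the highest and the lowest of the 4. The mean share was 85.2 ± 5.17% in knockdown and 84.7 ± 1.19% in control (SD, n = 2 each), a difference of 0.426 percentage points, with a negative sign without knockdown replicate 1 (-3.23) or control replicate 2 (-0.412) (two-sided exact permutation test over libraries, p = 1.0, where the smallest possible is 0.3333). Pooled, the 2 actins were at 282 and 253 CPM in knockdown and at 268 and 299 CPM in control.

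Actins also have processed copies in the genome that can take up their reads. Of annotated pseudogene rows, 12 matched Actg1 and 4 matched Actb, at 90% identity or more over at least 200 bases. The copies of Actg1 held reads equal to 15.4% and 12.3% of its own counts in knockdown, against 12.4% and 12.1% in control. Those of Actb came to at most 0.361%. Adding the copies to their parents left the share of Actb at 87.3% and 79.8% in knockdown and 84.1% and 82.3% in control.

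Fmn2 (chromosome 1, 174501825 to 174822729) encodes formin 2, without which mouse oocytes fail to position the spindle. It was at 394 and 451 CPM in knockdown embryos, against 369 and 379 CPM in controls. Both knockdown libraries lay above both controls. Knockdown embryos averaged 423 ± 39.9 CPM and control embryos 374 ± 6.61 CPM (SD, n = 2 each). On the log2 scale the fitted difference was 0.18 (SE 0.11, unadjusted p = 0.152 by edgeR), with an interval from 0.940-fold to 1.36-fold.

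Spire1 (chromosome 18, 67488209 to 67610790), the nucleator that partners Fmn2 in the oocyte, was at 164 and 187 CPM in knockdown, against 171.0 and 170.5 CPM in control. The control libraries lay between the knockdown libraries. Its log2 fold change was 0.04 (SE 0.12), and -0.056 without knockdown replicate 2. Fmn2 stood at 2.35 times the level of Spire1 per kilobase in both knockdown libraries, and at 2.11 and 2.17 times in the control libraries. A two-sided exact permutation test over libraries gave p = 0.3333. This is the smallest p that 6 arrangements allow, so the test cannot decide whether the groups differ. The ratio was not among the planned values. Of the unplanned ratios and pooled levels tested in the same way, it alone reached this p.

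Spire2 (chromosome 8, 123332713 to 123369515) is the second gene of the family, and can stand in for Spire1 in the mouse oocyte. It had 417 and 199 counts in knockdown, against 86 and 122 counts in control. These were 4.32 and 2.12 CPM in knockdown and 0.970 and 1.52 CPM in control, so the groups did not overlap, while the knockdown libraries differed from each other by 1.03 on the log2 scale. Its log2 fold change of 1.37 (SE 0.56) was the farthest from 0 of the 10 and had their smallest unadjusted p, 0.0527 by edgeR. Over 11 alternatives its log2 fold change stayed above 0. With groups that do not overlap, these alternatives could hardly turn the sign, so this is no further evidence. Its adjusted p was 0.893 with DESeq2 and 0.978 with limma-voom. The log2 fold change was 0.77 without knockdown replicate 1 and 1.8 without knockdown replicate 2. Counting error reached 10.8% in control replicate 1. Spire1 and Spire2 together were at 168 and 189 CPM in knockdown and at 172.0 and 172.1 CPM in control.

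Daam1 (chromosome 12, 71831078 to 71992333) encodes a formin that acts in the Wnt planar polarity pathway. It was at 489.8 and 518 CPM in knockdown, against 489.9 and 474 CPM in control. The lower knockdown library was level with the higher control. Daam1 had the smallest gap between knockdown replicates of the 10, 0.08 on the log2 scale, and the narrowest interval, from 0.896-fold to 1.22-fold around a log2 fold change of 0.06 (SE 0.09).

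Actr2 (chromosome 11, 20062304 to 20112913) and Actr3 (chromosome 1, 125392905 to 125435727) encode Arp2 and Arp3, the actin-like subunits that form the first units of a new branch. Actr2 was at 926 and 1009 CPM in knockdown, against 817 and 879.9 CPM in control. Actr3 was at 313 and 361 CPM in knockdown, against 290.4 and 288 CPM in control. For both genes the knockdown libraries lay above both controls.

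Actr2 averaged 968 ± 59.3 CPM in knockdown and 849 ± 44.2 CPM in control, and its fitted log2 difference was 0.19 (SE 0.09, unadjusted p = 0.0879 by edgeR). Actr3 averaged 337 ± 34.4 CPM in knockdown and 289 ± 1.36 CPM in control, and its fitted log2 difference was 0.22 (SE 0.11, unadjusted p = 0.0996 by edgeR). The ratio of Actr2 to Actr3 per kilobase was 2.63 and 2.49 in knockdown and 2.50 and 2.71 in control. Leaving out each library in turn gave log2 fold changes from 0.13 to 0.25 for Actr2 and from 0.12 to 0.32 for Actr3. With groups that do not overlap, leaving out a library could hardly turn the sign, so these ranges are no further evidence. Processed copies of Actr3 held reads equal to between 3.92% and 4.52% of its counts, and those of Actr2 at most 0.71%.

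Cfl1 (chromosome 19, 5490455 to 5495201) encodes cofilin, the main non-muscle filament-severing protein. It was at 444 and 511 CPM in knockdown, against 527 and 509 CPM in control. Knockdown replicate 1 was the lowest library, while replicate 2 lay between the controls. Its log2 fold change was -0.12 (SE 0.11), with an interval from 0.768-fold to 1.11-fold. Snx32, on the opposite strand, shares 468 bases of exon with Cfl1 and had at most 122 counts in any library.

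Pfn1 (chromosome 11, 70651850 to 70654644) encodes profilin, which binds monomers and feeds them to formins. It was at 94.0 and 139 CPM in knockdown, against 111 and 121 CPM in control. The knockdown libraries stood on either side of the controls. Its log2 fold change of 0.01 (SE 0.21) took the other sign with limma-voom (-0.015), in a fit of genes averaging 10 CPM or more (-0.019), with the replicate number as a block (-0.014), without control replicate 1 (-0.05) and without knockdown replicate 2 (-0.29). Relative to Actb per kilobase, Pfn1 stood at 0.417 and 0.753 in knockdown and at 0.537 in both controls.

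**Figure D3:**
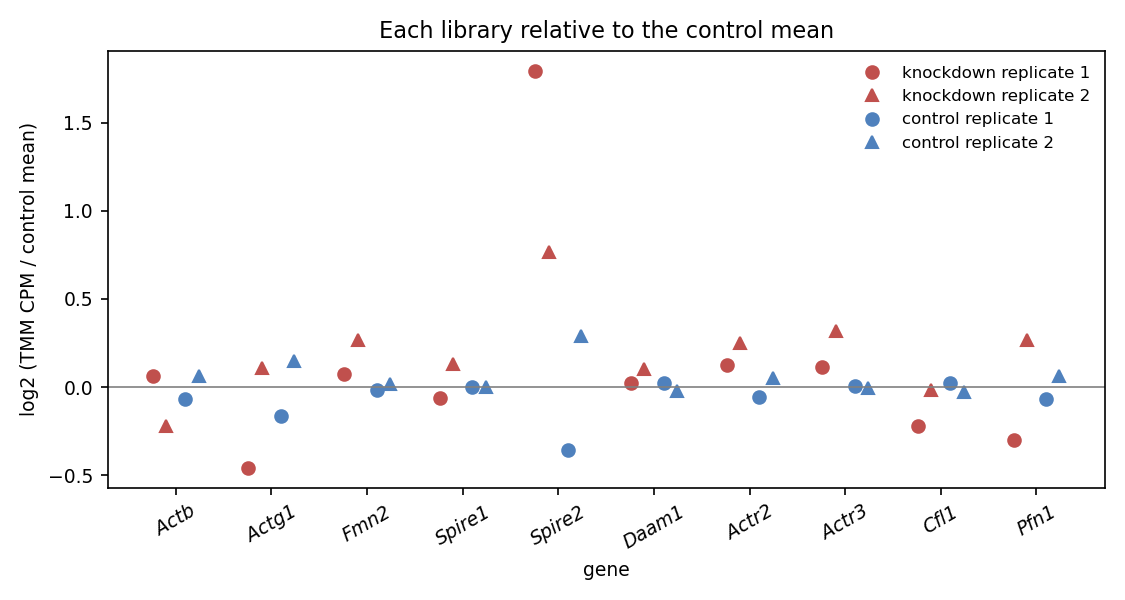
Log2 of each library's TMM CPM over the mean of the control libraries for the 10 genes, with knockdown (red) left of control (blue), circles for replicate 1 and triangles for replicate 2. Actb is higher in knockdown replicate 1, and Actg1, Cfl1 and Pfn1 are higher in knockdown replicate 2. Both knockdown libraries lie above both controls for Fmn2, Spire2, Actr2 and Actr3.

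Both knockdown libraries lay above both controls in 4 of the 10 genes (Fmn2, Spire2, Actr2 and Actr3), against 15.6% of all genes tested, and below them in 0, against 17.1%. Among the 2111 tested genes that averaged 100 CPM or more, 27.0% lay above and 8.86% below, and of the 8 members over that limit 3 lay above and 0 below. This limit was chosen after the values were seen. The replicates within knockdown were farther apart than those within control in all 10 genes, as in 70.5% of the 8185 genes that averaged 10 CPM or more. Knockdown replicate 2 was the higher in 8 of the 10, all but Actb and Spire2, and in 60.7% of those 8185 genes. The sum of the 10 levels was 678.9 and 749.6 CPM per kb in knockdown, against 680.4 and 701 in control. The difference of 23.6 CPM per kb had p = 1.0 (two-sided exact permutation test, n = 2 each), and was -11.7 without knockdown replicate 2.

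Beyond the 10, no gene of 7 lists of actin regulators passed the test over all genes. Of 107 listed genes 100 could be tested, with 0 called in either direction, 44 fold changes above 0 and 56 below, and a median log2 of -0.025. By unadjusted p under 0.05, 3 listed genes had lower values in knockdown (Cttn, Tmsb4x and Tpm1) and 0 had higher, against 2.29% and 1.56% of all genes tested. The adjusted p by edgeR was 0.9999 for every tested gene of these lists named below. Except for Myl9, those tested genes are the 2 with the smallest p of their list. That choice favours genes whose groups do not overlap, so a lack of overlap is no further evidence for them. Of all genes tested, both knockdown libraries lay above both controls in 15.6% and below them in 17.1%.

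The other Arp2/3 subunits had 5 of 8 fold changes above 0 and a median log2 of 0.06. Arpc3, the subunit with the smallest p, was at 33.2 and 50.3 CPM in knockdown, against 32.3 and 23.7 CPM in control (log2 fold change 0.58, SE 0.27). Arpc1a was at 20.1 and 16.0 CPM in knockdown, against 17.5 and 27.2 CPM in control. The first lay above its controls in both libraries and the second overlapped them.

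Of the activators and inhibitors of the complex, 7 of 18 lay above 0 (median -0.06). Cttn encodes cortactin, which stabilizes branches. It had the smallest p of the tested genes in these lists and was at 3.92 and 3.66 CPM in knockdown, against 9.12 and 8.83 CPM in control (log2 fold change -1.24, SE 0.28, unadjusted p = 0.00539 by edgeR). Without each library in turn the log2 fold change of Cttn ran from -1.29 to -1.19. The gene was picked by its p and its groups did not overlap, so this range could hardly turn the sign and is no further evidence. Its adjusted p was 0.134 with DESeq2 and 0.978 with limma-voom. Arpin, an inhibitor of the complex, was at 0.808 and 0.543 CPM in knockdown, against 2.04 and 1.01 CPM in control.

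The other formins and nucleators had 7 of 14 above 0 (median 0.0053). Fmnl2 was at 32.9 and 25.4 CPM in knockdown, against 22.5 and 23.3 CPM in control. Fmnl3 was at 119 and 122 CPM in knockdown, against 113 and 107 CPM in control. Both lay above their controls in both libraries, and Daam2, Grid2ip and Lmod2 had too few counts to test.

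Among other cofilin, profilin and monomer-binding factors, 8 of 23 lay above 0 (median -0.09). Tmsb4x, the monomer-sequestering thymosin beta 4, was at 13.3 and 9.56 CPM in knockdown, against 17.2 and 27.4 CPM in control (log2 fold change -0.97, SE 0.32, unadjusted p = 0.0253 by edgeR). Coro1c, a coronin of filament turnover, was at 8.36 and 6.58 CPM in knockdown, against 12.2 and 11.2 CPM in control. Neither gene's groups overlapped.

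Capping, severing and elongation factors had 8 of 13 above 0 (median 0.13). Evl, an elongation factor of the Ena/VASP family, was at 29.5 and 38.6 CPM in knockdown, against 26.5 and 27.3 CPM in control. Gsn, which encodes the severing protein gelsolin, was near the lower end of detection, at 21 and 2 counts in knockdown and 33 and 68 in control.

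Myosins and crosslinkers had 9 of 21 above 0 (median -0.06). Tpm1, a tropomyosin, was at 2.95 and 1.91 CPM in knockdown, against 6.77 and 5.23 CPM in control (log2 fold change -1.30, SE 0.40, unadjusted p = 0.0187 by edgeR). Ezr, the membrane linker ezrin, was at 8.71 and 7.40 CPM in knockdown, against 4.08 and 6.29 CPM in control. The point farthest to the right in the plot of the lists is Myl9, a myosin light chain named after its values were seen, with 257 and 3 counts in knockdown and 0 and 31 in control.

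Of 5 muscle and other actins, 3 could be tested and 3 lay below 0 (median -0.96). Actg2, the enteric smooth muscle actin, was at 1.49 and 1.84 CPM in knockdown, against 2.59 and 3.88 CPM in control. Acta1, the skeletal muscle actin, had 35 and 4 counts in knockdown, against 132 and 37 in control. Muscle actin genes are close in sequence to Actb and Actg1, so their low counts are uncertain.

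**Figure D4:**
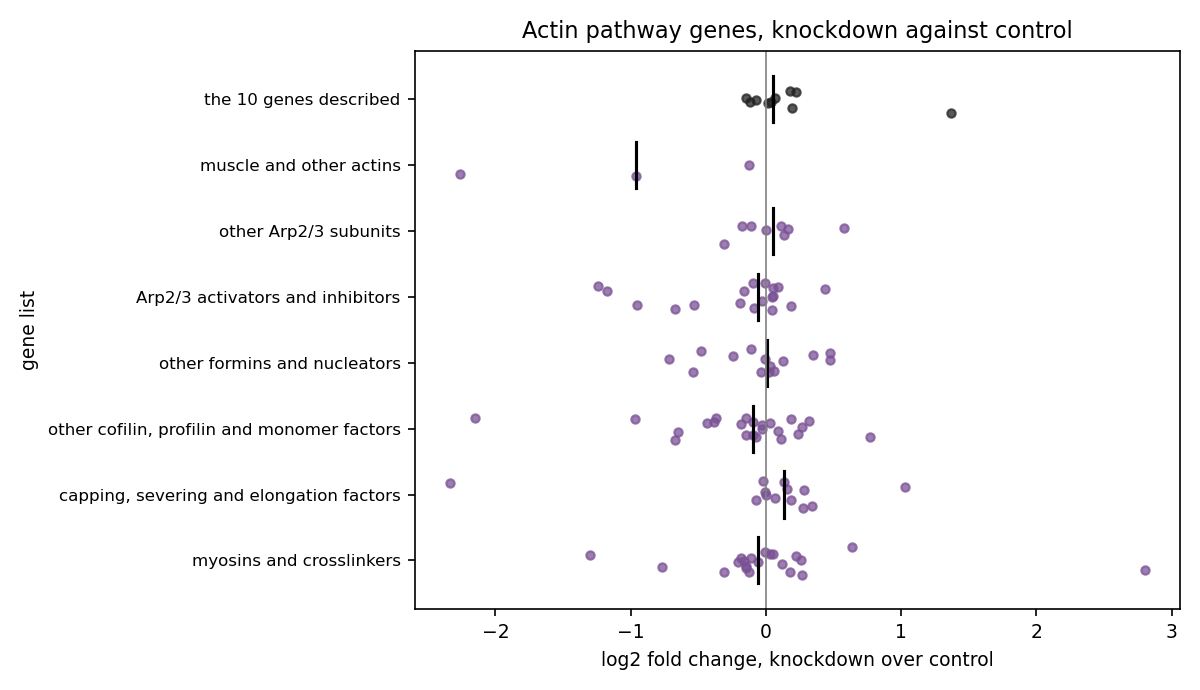
Log2 fold change of knockdown over control for the 10 genes (black) and for 100 tested genes in 7 lists of actin regulators (purple), with the median of each row as a bar. No gene passed the adjusted test, and the medians lie between -0.09 and 0.13 except for the 3 muscle and other actins at -0.96.

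Actin genes are strongly expressed in many other cells, so markers of these were read as well. The sum of 16 cumulus and granulosa markers was 79.4 and 90.5 CPM in knockdown, against 89.7 and 83.2 CPM in control. Of these markers 12 had counts in every library and Inha was at 0 in all 4. Of the 15 with counts, 3 lay below both controls in knockdown (Has2, Foxl2 and Inhbb), 1 lay above (Fshr) and 11 overlapped (Ptx3, Tnfaip6, Ptgs2, Amh, Amhr2, Inhba, Cyp19a1, Star, Pgr, Nr5a2 and Fst). Of all genes tested, 17.1% lay below and 15.6% above. Has2, the hyaluronan synthase of cumulus cells, was at 0.932 and 0.458 CPM in knockdown, against 2.65 and 2.58 CPM in control. Fshr, the receptor for follicle-stimulating hormone, was at 0.798 and 1.24 CPM in knockdown, against 0.609 and 0.361 CPM in control. The most abundant of the list, Cyp19a1 (aromatase), was at 36.8 and 55.7 CPM in knockdown, against 47.4 and 38.6 CPM in control. Next came Nr5a2, at 26.0 and 22.1 CPM in knockdown, against 28.6 and 24.9 CPM in control. These 2 genes lead the sum. Whether their reads came from cumulus cells or from the embryo was not tested, so the sum is no measure of cumulus cells. The list thus held genes on either side, with most overlapping.

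The sum of 12 blood and oviduct markers was 78.4 and 34.8 CPM in knockdown, against 70.6 and 84.2 CPM in control, with Hbb-bs, Hbb-bt and Col3a1 at 0. Of the 9 with counts, 4 lay below both controls in knockdown (Hba-a1, Ptprc, Col1a1 and Krt8), 1 lay above (Ovgp1) and 4 overlapped (Hba-a2, Lyz2, Col1a2 and Epcam). Epcam and Hba-a1 lead the sum. Epcam was at 32.8 and 14.7 CPM in knockdown, against 26.1 and 17.5 CPM in control. Whether its reads came from the oviduct or from the embryo was not tested, so the sum is no measure of blood or oviduct cells. Hba-a1, an alpha-globin, was at 24.9 and 10.4 CPM in knockdown, against 26.2 and 27.1 CPM in control. The macrophage gene Lyz2 stood at 4.19 and 1.44 CPM in knockdown, against 4.18 and 19.4 CPM in control. The 7 sperm markers summed to at most 6.64 CPM, with 4 below (Prm2, Tnp1, Tnp2 and Akap4), 1 above (Prm1) and 2 overlapping (Odf1 and Spata18). The shares over all genes tested were 17.1% below and 15.6% above. Several of these markers had few counts. Ptprc had 0 and 7 counts in knockdown and 17 and 112 in control. Tnp2 had 0 and 0 against 28 and 4, and Prm1 had 31 and 28 against 10 and 19. The part of such cells in the values of the actin genes was not tested.

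The genes whose pattern over the 4 libraries was most like that of Actb were Snrpg, Dgkk and Nudt6, at Euclidean distances of 0.012, 0.015 and 0.03 in centred log2 CPM, against a median of 0.419 over 8184 genes. For Fmn2 they were Elp6, Gm42848 and Ninj2, at 0.016, 0.016 and 0.018, against a median of 0.327. These distances describe 4 libraries only.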

How the data were processed

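Poly(A) RNA was measured as cDNA, pre-amplified before library construction per the labels' protocols. The deposited table holds raw counts per gene, which by their values the authors did not normalize. Tools listed in the submitters' processing notes, with no roles, are HISAT2 2.1.0, CASAVA 1.8, Picard 2.18.2 and Trim Galore 0.6.5, with the build mm10. The sources used here give no counting tool, annotation release or strand setting, so overlapping genes cannot be told apart. Of 53715 rows, 53620 matched GENCODE M21 (GRCm38) by ID without version, and lengths and positions come from it.

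Counts were tested in edgeR 4.0.16 (R 4.3.3) with filterByExpr (minimum count 10), TMM scaling and the quasi-likelihood F-test, knockdown over control, two-sided, adjusted over 25565 genes, with a threshold of 0.05 and group as the only term. SE is the log2 fold change over the square root of F. DESeq2 1.42.0 and limma-voom (limma 3.58.1) were alternatives, with other scalings, filters, gene lengths and left-out libraries. The fit was tested on simulated data with changes larger than those fitted for the 10 genes, so that test does not cover differences of their size. Pseudogene copies were matched with BLAST+ 2.17.0. Each library counted as 1 sample. Even the closest libraries, the control pair, differed beyond sampling noise (chi-square over degrees of freedom 30.9). This cannot tell separate collections from technical spread. Counting errors cover counting only, since no molecular identifiers are named.

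The members and lists were chosen with earlier results of these data known. The rule for named genes took all 10 members and, from each list, up to 3 genes past the threshold or otherwise the 2 with the smallest p. It also took the 3 genes nearest in pattern to Actb and to Fmn2 among genes averaging 10 CPM or more, and the markers of other cell types with counts, of which a few are given with their levels. One list of regulators is not reported here.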

Additional observations from a re-analysis of the deposited data

How the results depend on the processing

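The counts of called genes among the 10 members and among the actin lists stayed at 0 under every alternative run. Over all genes DESeq2 called 49, and leaving out each library gave 0 to 3 (3 without knockdown replicate 1 and 2 without knockdown replicate 2). With a replicate block edgeR called 0 genes, and with crossed pairs as a block, chosen after seeing the data, also 0. Same-numbered libraries did not deviate together (r = -0.207 over 8185 genes), so the number is not taken as a pairing. Pfn1 turned to -0.015 with limma-voom, -0.019 at a limit of 10 CPM and -0.014 with the replicate block. Leaving out each library took the log2 fold change from -0.22 to 0.070 for Actb, from -0.45 to 0.11 for Actg1, from -0.056 to 0.13 for Spire1, from -0.29 to 0.27 for Pfn1 and from -0.60 to 0.040 for Arpc1a. It took the difference in the Actb share from -3.23 to 4.08 percentage points and in the summed level from -11.7 to 59.0 CPM per kb. Beyond the smaller number of libraries, the cause was not tested. The limit of 10 CPM left out Spire2 and the muscle actins. With 2 libraries a group, differences as small as those of Fmn2, Actr2 and Actr3 could not be told from the spread between libraries, although their counting error was under 1%.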
